A study of Bos taurus with 4 samples.

Results

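The microRNAs described here come from the miR-17 to 92 cluster and its paralogs: miR-17, miR-20a, miR-19b, miR-92a, miR-92b, miR-25, miR-93 and miR-106b. They were found by name among the small RNAs of bovine oocytes, after removal of the arm, the copy number and any bracketed note, and make up 8 of the 484 bovine microRNA names in the files. All 8 had reads, spread over 498 distinct sequences. The study sequenced small RNAs of bovine (Bos taurus) oocytes at the germinal vesicle (GV) stage, the stage of meiotic arrest with an intact nucleus, around a complex of the PIWI protein PIWIL3 with the Tudor domain protein TDRKH. The 2 input libraries were made with no antibody, and the 2 TDRKH IP libraries from RNA that came down with an anti-Tdrkh antibody. Both groups were total RNA of the same stage and cell type, extracted with TRIZOL and read for 75 bases from 1 end. No library of a control antibody was analysed here, so RNA bound by TDRKH and RNA that stays on the beads cannot be told apart. The labels give neither the number of oocytes nor whether replicates came from separate collections, so p-values measure only the spread between these libraries, which may be technical.

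A microRNA is cut from one arm of a hairpin RNA and guides an Argonaute protein to messenger RNAs that pair with its seed, bases 2 to 8 from the 5′ end. The miR-17 to 92 cluster is transcribed as a single precursor that holds several hairpins, and is known for promoting proliferation and survival and for holding down the cell cycle inhibitor p21 and the pro-apoptotic protein BIM. MicroRNAs with the same seed share many predicted targets, whichever cluster they come from. TDRKH is known as a partner of PIWI proteins, which carry piRNAs, the larger class of small RNA in germ cells. In bovine RefSeq (assembly ARS-UCD2.0), MIR17, MIR18A, MIR19A, MIR20A, MIR19B and MIR92A-1 follow each other as a run of 6 genes, and MIR106B, MIR93 and MIR25 as a run of 3. A further run of 6 holds MIR363, MIR92A-2, MIR19B-2, MIR20B, MIR18B and MIR106A, while MIR92B has no microRNA gene within 10000 bases. miR-92a and miR-19b thus come from 2 places each, which a mature sequence does not tell apart.

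The sequences sort into 3 seed groups, and are shown so that a reader can see what the groups share and where they part. Each is the sequence that the files list with the bare name, or the most abundant in the inputs for miR-17 and miR-106b. These have no such row, so their printed form need not be the annotated one. They are printed 5′ to 3′ in DNA letters as deposited, with the seed in capitals.
miR-17: cAAAGTGCttacagtgcaggtaga
miR-20a: tAAAGTGCttatagtgcaggtag
miR-93: cAAAGTGCtgttcgtgcaggta
miR-106b: tAAAGTGCtgacagtgcaga
miR-25: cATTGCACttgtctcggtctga
miR-92a: tATTGCACttgtcccggcctgt
miR-92b: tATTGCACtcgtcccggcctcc
miR-19b: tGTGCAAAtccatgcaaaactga
Positions were counted from 1 at the 5′ end. miR-17 and miR-20a differed at 2 of 23 bases, C1T and C12T from the first to the second. miR-92a and miR-92b differed at 3 of 22 bases, T10C, G21C and T22C. miR-25 and miR-92a differed at 4 of 22, C1T, T14C, T18C and A22T. Members of a group thus differ outside the seed. Of 501 pairs of a listed sequence and a member, 15 also bore the name of another microRNA and 0 a name outside the bovine microRNAs.

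The libraries differed in depth and make-up. The inputs held 1079364 and 1354003 listed reads and the IPs 11138905 and 11060320, and values are reads per 1000000 listed reads (RPM). Bovine microRNAs were 1.77% and 1.82% of the inputs and 0.0603% and 0.0735% of the IPs. Reads named for piRNA clusters, here taken as the sign of the oocyte, were 88.8% and 87.8% of the inputs and 96.9% and 96.8% of the IPs. All values are shares, so more piRNA and less of all other RNA in an IP cannot be told apart, nor in such bulk samples fewer cells of a type and less RNA per cell. Of 22 microRNAs listed as markers of other cell types, 15 had reads, and their sum was 1094 and 1027 RPM in the inputs and 11.5 and 19.3 RPM in the IPs. Their part in the member results was not tested. Markers of cumulus and granulosa cells, which surround the oocyte, had reads for 5 of 6 and summed to 449 and 505 RPM in the inputs and 6.28 and 12.7 RPM in the IPs, with miR-212 at 0 throughout. Leukocyte markers (3 of 5 with reads, miR-223 and miR-155 at 0) summed to 61.1 and 49.5 RPM, then 0.628 and 0.362. Epithelial markers (3 of 3) summed to 62.1 and 65.7 RPM, then 0.628 and 0.181. The liver microRNA miR-122 stood at 435 and 335 RPM, then 1.71 and 2.35, and muscle and stroma markers (3 of 4, miR-133a at 0) at 87.1 and 71.6 RPM, then 2.24 and 3.71. All 3 red blood cell markers were at 0 in the 4 libraries.

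Together the 8 members stood at 1176 and 1256 RPM in the inputs and at 17.2 and 18.2 RPM in the IPs. The groups lay far apart, with the replicates of each close together. As a share of bovine microRNA reads, the members were 6.63% and 6.92% of the inputs and 2.86% and 2.47% of the IPs, so they were a smaller part of the microRNAs as well as of all reads. The median bovine microRNA tested also lost share (log2 change -0.96 on that scale), with 79 of 160 called lower and 28 higher. The total includes names that did not fall, such as miR-10161 (104 and 98.2 RPM, then 112 and 135). Their part in the drop was not tested. Over pooled reads, the RPM of the members was 68.9-fold lower in the IPs (95% exact interval 62.0 to 76.8). This interval and those that follow cover the counting error of reads only. They leave out the spread between libraries, and PCR copies of a molecule were not removed.

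**Figure D1:**
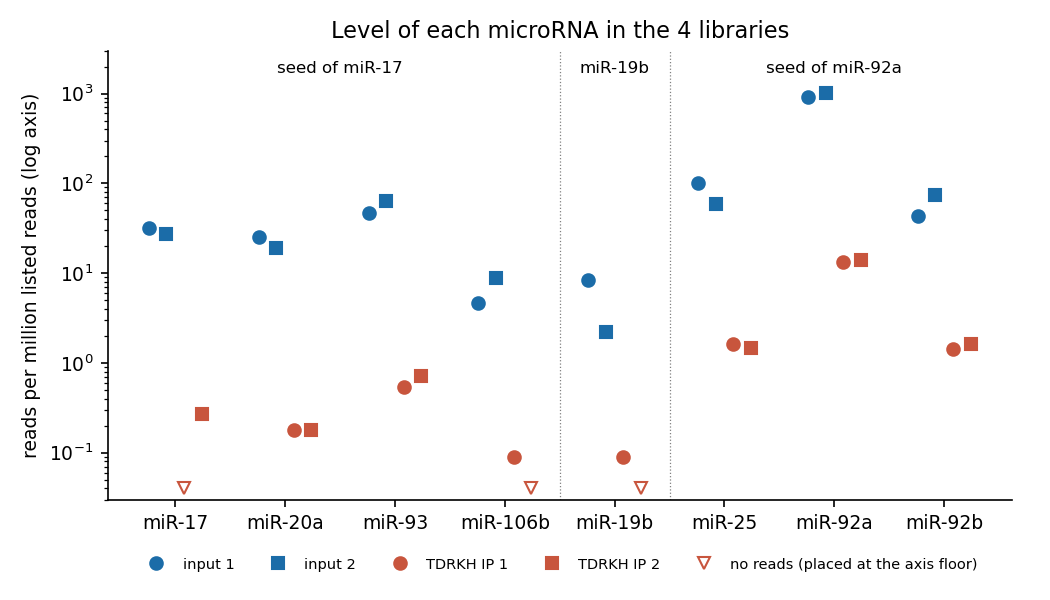
Level of each member in RPM (log axis) in the 4 libraries, in blocks by seed, with open triangles for 0 reads. miR-92a lies highest in every library, and for all 8 members both inputs lie above both IPs. How many of all names do so was not counted, and 138 of 160 bovine microRNAs tested were called lower in the IPs.

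Among the members with the miR-92a seed, miR-92a carried most of the reads. It stood at 914 and 1002 RPM in the inputs (987 and 1357 reads) and at 13.3 and 13.9 RPM in the IPs (148 and 154 reads). Both inputs lay well above both IPs, and its rank among bovine microRNAs went from 5 in the inputs to 11 in the IPs. miR-25, from the cluster with miR-106b and miR-93, stood at 101 and 59.1 RPM in the inputs and at 1.62 and 1.45 RPM in the IPs. Input 1 was the higher input, and the groups did not overlap. miR-92b, the member encoded apart from the clusters, stood at 43.5 and 73.9 RPM in the inputs and at 1.44 and 1.63 RPM in the IPs. Here input 2 was the higher input, so miR-25 and miR-92b changed places between the inputs. In pooled reads the IPs were lower by 70.8-fold for miR-92a (62.8 to 80.1), 50.7-fold for miR-25 (35.1 to 75.4) and 39.4-fold for miR-92b (27.0 to 59.1).

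Among the members with the miR-17 seed, which are made from the 5′ arm of their hairpins, miR-93 was the most abundant. It stood at 47.3 and 63.5 RPM in the inputs and at 0.539 and 0.723 RPM in the IPs (6 and 8 reads). miR-17, which names the cluster, stood at 31.5 and 27.3 RPM in the inputs, with no read in IP 1 and 3 reads (0.271 RPM) in IP 2. miR-20a, its neighbour in the cluster, stood at 25 and 19.2 RPM in the inputs and at 0.180 and 0.181 RPM in the IPs, from 2 reads each. For these 3 members no library of one group reached the range of the other, and the share of all names for which this holds was not counted. miR-106b was scarce, with 5 and 12 reads in the inputs (4.63 and 8.86 RPM) and 1 read over both IPs. The pooled ratio of input to IP was 89.3 for miR-93 (51.4 to 168), 121 for miR-20a (44.5 to 460), 216 for miR-17 (70.9 to 1072) and 155 for miR-106b (24.3 to 6481). The last 2 rest on 3 and 1 IP reads, and their intervals hold the values of most other members.

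miR-19b, the only member with its seed, had 9 and 3 reads in the inputs (8.34 and 2.22 RPM) and 1 read over both IPs. Its pooled ratio of input to IP was 109, with a counting interval of 16.2 to 4680. The ratio between the input libraries was larger for this member than for any other of the 8, and input 2 was at the level of 3 counts (2.22 RPM), the most that a count of 0 allows.

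In order of mean RPM in the inputs the members ran miR-92a (958 ± 62.1, SD, n = 2), miR-25 (80.0 ± 29.6), miR-92b (58.7 ± 21.4), miR-93 (55.4 ± 11.5), miR-17 (29.4 ± 2.95), miR-20a (22.1 ± 4.11), miR-106b (6.75 ± 2.99) and miR-19b (5.28 ± 4.33). The libraries of miR-25, miR-92b and miR-93 overlapped each other, as did those of miR-106b and miR-19b. In the IPs miR-92a (13.6 ± 0.450 RPM) was followed by miR-25 (1.53 ± 0.120) and miR-92b (1.53 ± 0.135), which overlapped, and by miR-93 (0.631 ± 0.131). The other 4 had at most 4 reads over both IPs, and their order there was not detectable at this depth.

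The seed groups took unequal parts of the member reads. Reads were grouped by name, whether or not they held the seed. In the IPs 2 of 14 miR-93 reads and the 1 miR-106b read did not hold it. Nor did 11 of 302 miR-92a and 1 of 34 miR-25 IP reads. The miR-17 seed group was 9.22% and 9.47% of member reads in the inputs and 4.69% and 6.47% in the IPs, and the miR-92a seed group 90.1% and 90.4%, then 94.8% and 93.5%. Both IPs were below both inputs for the first and above them for the second. The miR-17 seed group was 115-fold lower in the IPs by RPM (74.6 to 187) and the miR-92a seed group 66.1-fold lower (59.3 to 73.9), over pooled reads. The difference between the seed groups was not tested.

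Against the whole table of names, the members moved with the great majority of microRNAs. The edgeR quasi-likelihood test with Benjamini-Hochberg adjustment called 74.7% of 5392 names at a threshold of 0.05, with 58.0% lower and 16.6% higher in TDRKH IP. All 7 members tested were called lower, in a table where 138 of 160 bovine microRNAs were lower and 3 higher. The filter on low counts asked for 1.61 RPM in 2 libraries and 15 reads in all. For 6 of the 7 it was passed through the inputs and not through both IPs. One of these 6 at its IP level in every library might thus not have been tested. miR-92a passed in all 4 libraries. miR-92a changed by -6.14 ± 0.09 (log2 fold change ± SE, adjusted p = 2.86e-09), near the median of -5.67 over all bovine microRNAs tested and below the median of -2.40 over all names. The other members changed by -5.67 ± 0.32 (miR-25), -5.26 ± 0.32 (miR-92b), -6.42 ± 0.31 (miR-93), -6.77 ± 0.44 (miR-20a), -7.56 ± 0.55 (miR-17) and -6.73 ± 0.84 (miR-106b), with adjusted p from 1.36e-06 to 0.000208. The last 2 are fitted values on 3 and 1 IP reads, and the read ratios above describe them better. The fitted value of miR-17 was -6.62 without IP 1 and -10.05 without IP 2. miR-19b failed the filter with 13 reads in all. With no filter all 8 were tested and 6 were called lower, where 6.92% of 30919 names were called, 6.12% lower and 0.802% higher; miR-106b (adjusted p = 0.0534) and miR-19b (adjusted p = 0.101) were not called.

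To ask whether the members changed their share of the microRNAs, the same table was tested with the bovine microRNA reads as library size. On this scale 70.0% of names were called, 8.81% lower and 61.2% higher, since most other names gain when microRNAs are held level. Among bovine microRNAs 79 of 160 were lower and 28 higher, and the median change was -0.96. Of the 7 members 5 were called lower. miR-92a changed by -1.38 ± 0.24 (adjusted p = 1.18e-08), miR-17 by -2.97 ± 0.68 (2.86e-05), miR-93 by -1.71 ± 0.44 (0.000224) and miR-20a by -2.15 ± 0.68 (0.00266). miR-25 changed by -0.94 ± 0.37 (0.0159), a value next to the microRNA median. miR-92b (-0.52 ± 0.37, adjusted p = 0.203) and miR-106b (-2.36 ± 1.16, adjusted p = 0.0597) missed the threshold. With exact names only, which leaves out reads whose names carry a mismatch note, 2 of the 5 calls were made. These were miR-17 (-2.45) and miR-92a (-0.57, adjusted p = 0.0475), beside 5.67% of all names and 32 of 111 bovine microRNAs lower. miR-93 (-0.91), miR-20a (-1.05) and miR-25 (-0.05) were then not called, and miR-92b turned to 0.06. The count was 3 by DESeq2 and 3 without IP 2, both times without miR-25 and miR-20a, and without input 1 miR-25 (-0.50) was not called. The value of miR-17, which had no read in IP 1, was -2.13 without IP 1 and -7.79 without IP 2.

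**Figure D2:**
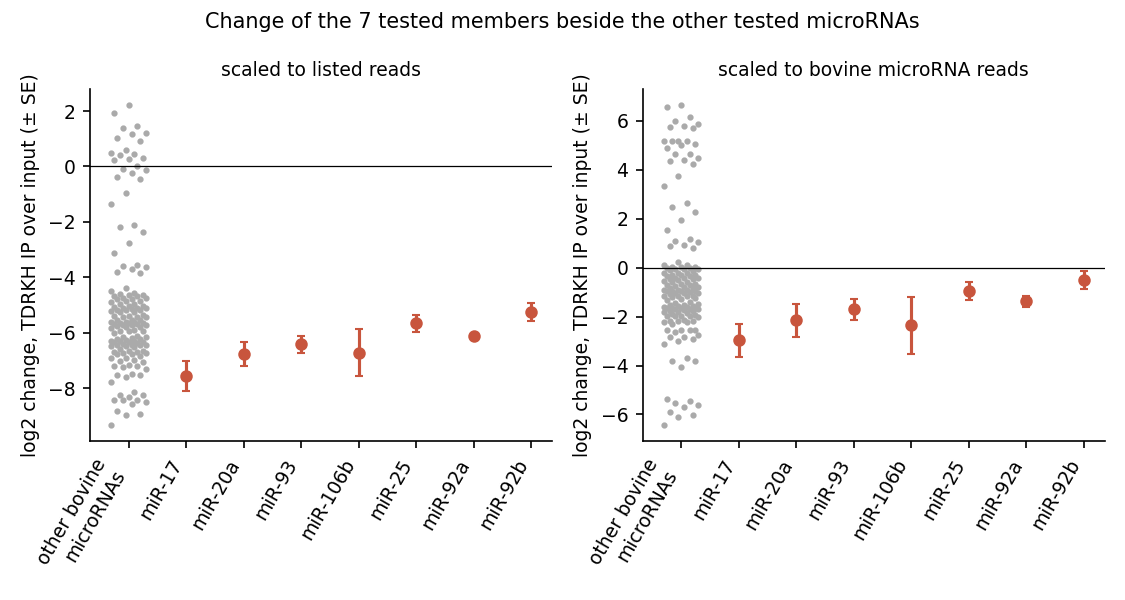
Log2 change from input to TDRKH IP with its standard error for the 7 members tested, once with listed reads and once with bovine microRNA reads as library size, beside the other bovine microRNAs tested (grey points). All 7 member points are below 0; within microRNA reads miR-92b (-0.52) and miR-25 (-0.94) lie closest to 0.

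Set against miR-92a within each library, miR-92b was 4.76% and 7.37% of miR-92a in the inputs and 10.8% and 11.7% in the IPs. Both IPs lay above both inputs, and the exact two-sided permutation test gave p = 0.33, the smallest that 2 against 2 libraries can give. miR-20a went the other way, from 2.74% and 1.92% of miR-92a to 1.35% and 1.30%. For miR-25 (11.0% and 5.90%, then 12.2% and 10.4%) and miR-93 (5.17% and 6.34%, then 4.05% and 5.19%) the groups overlapped.

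Arms could not be read from the deposited names. A bare name marks a sequence equal to the annotated mature one, and nearly all other sequences carried the suffix of the 3′ arm: of the 501 pairs, 494 had that suffix, 1 had the suffix of the 5′ arm and 6 had none. For miR-17 29 of 30 sequences were named for the 3′ arm and for miR-93 43 of 44, though they hold the seed of the 5′ arm product. The miR-17 sequence named for the 5′ arm ends in T where the printed form ends in A, and had 1 read, in IP 2. By sequence, 2956 of the input reads and 384 of the IP reads matched the arm printed above, and 19 and 6 matched another sequence of the same name. miR-106b was the member where both arms weighed alike, with 7 input reads of the printed arm and 10 input reads and 1 IP read of the other. The other arm is shown because it is the only form of miR-106b found in an IP, with the same bases as its commonest input forms up to the last base or bases.
miR-106b, other arm: ccgcactgtgggtacttgctg
For miR-92b a second sequence, counted with its own forms, had 9 reads in input 2 and none in the other libraries. A further 3 reads in input 1 and 1 in input 2 matched neither. One form of this second sequence is shown, and it does not hold the seed.
miR-92b, other sequence: agggacgggacgcggtgcagtgtt

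When the table kept the arm names, 74.8% of 5435 names were called and 58.4% were lower. All 10 member names tested were lower, and they compare exact with inexact sequences rather than arms. Bare miR-92a changed by -5.69 ± 0.13 and miR-92a with a suffix by -6.81 ± 0.11, and miR-25 by -4.81 ± 0.30 and -6.58 ± 0.53 (log2 fold change ± SE). For miR-92b the values were -5.49 ± 0.39 and -5.11 ± 0.39. Exact sequences of miR-92a and miR-25 thus fell less than the inexact ones, by more than the standard errors, while those of miR-92b were within them; the difference was not tested.

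The length and end forms of miR-92a show where these inexact reads lie. The forms printed here are its most abundant ones, with added or changed bases in capitals.
miR-92a, annotated: tattgcacttgtcccggcctgt
miR-92a, added A: tattgcacttgtcccggcctgtA
miR-92a, added AA: tattgcacttgtcccggcctgtAA
miR-92a, added T: tattgcacttgtcccggcctgtT
miR-92a, added AT: tattgcacttgtcccggcctgtAT
miR-92a, first base missing: attgcacttgtcccggcctgt
miR-92a, C13A: tattgcacttgtAccggcctgt
The forms with added T, with added AT and with C13A lay outside the naming rule and were chosen after their values were seen, as all 10 member sequences tested are named. The annotated form stood at 432 and 541 RPM in the inputs and at 9.52 and 9.31 RPM in the IPs. The form with added A stood at 30.6 and 56.1 RPM, then 0.539 and 0.452, and the form with added AA at 25.9 and 39.1 RPM, then 0.718 and 0.362. Both inputs were above both IPs for all 7 forms. Each was at 10 RPM or more in both inputs and in neither IP, so this count supports nothing. The form that lacks the first base, and so starts at the seed, had 19 and 21 reads in the inputs and 2 and 1 in the IPs, a ratio of 122 by RPM (38.7 to 615). C13A had 12 and 17 reads, then 0 and 1, a ratio of 265 (43.9 to 10805).

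In the test of 11786 sequences with at least 10 RPM in 2 libraries, 61.8% were called, 19.9% lower and 41.9% higher. All 10 member sequences tested were lower by the edgeR test. Each reached the minimum in both inputs and in no IP, so each had to differ. The annotated miR-92a changed by -5.69 ± 0.29 (log2 fold change ± SE, adjusted p = 7.10e-17). Its longer forms changed by -6.41 ± 0.48 (A), -5.88 ± 0.46 (AA), -5.94 ± 0.47 (T) and -5.11 ± 0.42 (AT), on both sides of the annotated form; their differences from it were not tested. The annotated miR-25 changed by -4.81 ± 0.42 from 29.6 and 29.5 RPM to 1.08 and 0.995, and the annotated miR-92b by -5.49 ± 0.45 from 18.5 and 27.3 RPM to 0.539 and 0.452. Within bovine microRNA reads, where 98.6% of sequences were called and 3.22% were lower, 7 of the 10 were lower. Annotated miR-25 (-0.08 ± 0.44, adjusted p = 0.853), annotated miR-92b (-0.79 ± 0.50, adjusted p = 0.117) and miR-92a with added AT (-0.44 ± 0.54, adjusted p = 0.427) were not called there.

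As a share of all miR-92a reads, the annotated form made up 47.2% (Wilson 95% interval 44.1% to 50.3%) and 54.0% (51.3% to 56.6%) of the inputs. In the IPs it made up 71.6% (63.9% to 78.3%) and 66.9% (59.1% to 73.8%). The mean went from 50.6% ± 4.82 to 69.3% ± 3.35 (SD, n = 2 each), and both IPs were above both inputs (exact two-sided permutation p = 0.33). This rise of 18.7 points became 5.31 points with exact names only. Reads with a substitution inside the sequence moved the other way, from 31.6% and 19.5% in the inputs to 3.38% and 4.55% in the IPs. Reads longer at the 3′ end were 11.5% and 16.1% in the inputs and 16.9% and 16.2% in the IPs, so both IPs lay just above both inputs, by less than the inputs differed. For miR-25 the annotated form went from 29.4% and 50% to 66.7% and 68.8%, and inner substitutions from 32.1% and 20% of 109 and 80 reads to none of 18 and 16 IP reads. The counts of 0 allow shares of up to 17.6% and 19.4% there (Wilson upper bounds).

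**Figure D3:**
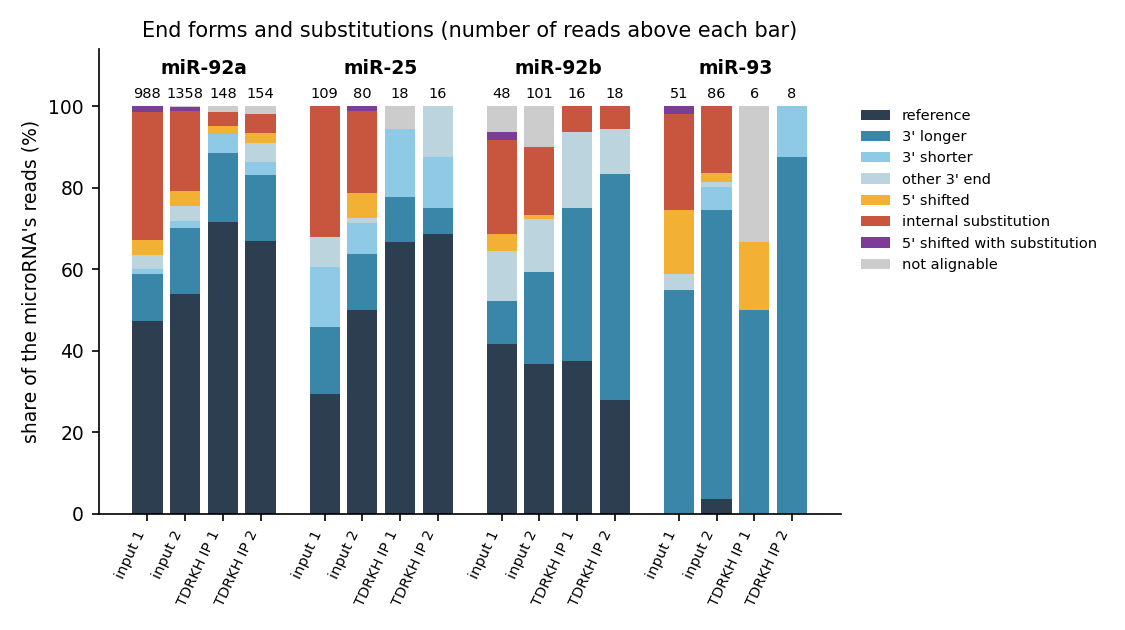
Stacked shares, in percent, of the reads of miR-92a, miR-25, miR-92b and miR-93 by form (reference stands for the annotated one) in the 4 libraries, with the number of reads above each bar. The annotated share of miR-92a is 47.2% and 54.0% in the inputs and 71.6% and 66.9% in the IPs, while for miR-92b the longer form is the one with higher IP shares.

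miR-92b differed from its relatives in this respect. Its annotated form was 41.7% and 36.6% of reads in the inputs and 37.5% and 27.8% in the IPs, and the groups overlapped. Its longer forms were 10.4% and 22.8% in the inputs and 37.5% and 55.6% in the IPs, from 6 and 10 IP reads (exact two-sided permutation p = 0.33). The Wilson intervals of the IP shares, 18.5% to 61.4% and 33.7% to 75.4%, are wide, and the first takes in the share of input 2.

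The bases added to miR-92a were mostly A. Of 333 longer reads in the inputs 61.6% had gained only A, 13.5% only T, and 82.3% had an A as the first added base. Of 50 longer reads in the IPs these shares were 50%, 12% and 78%. Longer miR-92b reads had gained only T in 10 of 28 input and 7 of 16 IP reads, and only A in 7 of 28 and 4 of 16. For miR-93, and narrowly for miR-20a over both inputs together, the commonest sequence was not the annotated one, and these are shown for that reason.
miR-93, added G: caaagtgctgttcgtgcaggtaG
miR-20a, added A: taaagtgcttatagtgcaggtagA
miR-93 with the added G had 21 and 43 reads in the inputs and 2 and 3 in the IPs, against 0, 3, 0 and 0 reads of the annotated 22 bases. It changed by -6.73 ± 0.51 (log2 fold change ± SE, adjusted p = 7.88e-13 by edgeR), and by -2.07 ± 0.59 within bovine microRNA reads (adjusted p = 0.000437). miR-20a with the added A had 4 and 7 input reads, against 6 and 3 for the annotated form, and no IP read. The added G is the base that miR-17 and miR-20a carry at that place, and whether the miR-93 hairpin encodes it was not tested.

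Read lengths set the seed groups apart more than the libraries. The commonest length was 22 nt for miR-92a, miR-92b and miR-25 in all 4 libraries and 23 nt for the miR-17 seed group. Reads of 22 nt were 76.4% and 72.2% of miR-92a in the inputs and 73.0% and 72.7% in the IPs. The mean length of miR-92a was 22.2 nt in each group. For miR-92b it was 22 and 22.4 nt in the inputs and 22.6 and 23.4 nt in the IPs, with no overlap (exact two-sided permutation p = 0.33). The miR-17 seed group averaged 23.4 nt ± 0.267 in the inputs and 23.2 nt ± 0.405 in the IPs, and its libraries overlapped.

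**Figure D4:**
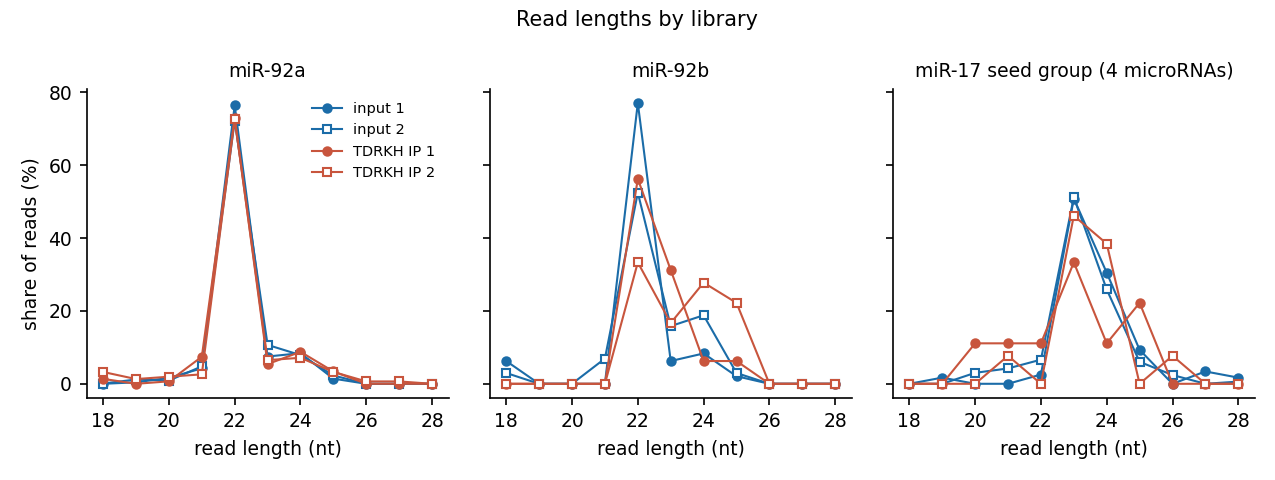
Share of reads by read length in nt for miR-92a, miR-92b and the miR-17 seed group, in percent, in the 4 libraries. The peak is at 22 nt for miR-92a and miR-92b and at 23 nt for the miR-17 seed group in both inputs and both IPs. The miR-17 seed group had only 9 and 13 reads in the IPs.

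The seed began mostly at base 2, except in miR-106b. In miR-92a the seed began at base 2 in 2093 input and 288 IP reads, at base 1 in 78 and 3 reads, and was not intact in 170 and 11 reads. In miR-25 it began at base 2 in 170 of 189 input reads and 33 of 34 IP reads, and in miR-92b in 127 of 149 and in all 34 IP reads. In miR-93 118 of 137 input reads held it at base 2, 7 at base 1 and 4 at base 4. Of the 14 miR-93 IP reads 11 held it at base 2 and 1 at base 1. It was absent from 8 input and 2 IP reads of miR-93. For miR-17 the count at base 2 was 61 of 76 input reads and all 3 IP reads. In miR-106b, with its reads of the other arm, it was 6 of 17, and the seed was absent from 11 input reads and the 1 IP read.

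Reads whose every name carries a bracketed note of a mismatch offer a further view of the inexact sequences. They were 34.6% and 23.2% of the member reads in the inputs and 7.81% and 12.0% in the IPs. Other bovine microRNAs went the other way, from 48.2% and 42.6% to 61.6% and 60.1%, and reads of piRNA clusters went from 48.7% and 41.2% to 26.0% and 26.2%. No pair of groups overlapped, at an exact two-sided permutation p of 0.33 each. Among members, miR-92a went from 34.1% and 23.3% to 6.76% and 11.7%, while miR-92b (29.2% and 24.8%, then 12.5% and 33.3%) overlapped. In miR-92a, 507 input reads and 11 IP reads held a single substitution. In the inputs C to A (124 reads), T to C (116), T to A (85) and C to T (51) were the commonest. These counts were not set against how many of each base the sequence holds, and T and C are its commonest bases. Per position there were 30 such reads at base 1, 16 in the seed and 26.1 over bases 9 to 22.

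**Figure D5:**
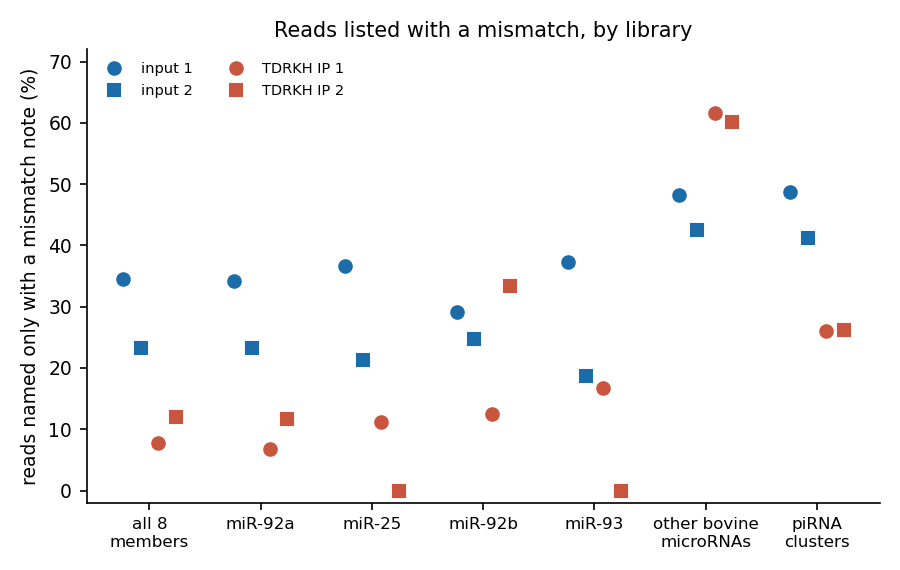
Share of reads, in percent, whose every name carries a mismatch note, in each library, for all 8 members, 4 of them singly, other bovine microRNAs and piRNA clusters. Members (34.6% and 23.2% to 7.81% and 12.0%) and piRNA clusters are lower in the IPs, and other bovine microRNAs (48.2% and 42.6% to 61.6% and 60.1%) are higher.

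The sequences found in IPs were largely those of the inputs. Of 80 distinct member sequences in the IPs 55 were also in an input, which is 68.8% of the IP sequences and 11.6% of the 473 input sequences. They held 92.1% of the IP reads, 361 of 392. For miR-92a 285 of 302 IP reads fell on sequences seen in an input, and for miR-92b 26 of 34.

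Other microRNAs of these clusters or seeds were a second list of 8: miR-18a, miR-18b, miR-19a, miR-20b, miR-106a, miR-363, miR-32 and miR-367. miR-106a is listed as miR-106, a name that RefSeq gives as a synonym, and miR-367 had no read. By edgeR 3 of the 8 were tested and all were lower, beside 58.0% of all names. These 3 reached the RPM minimum of the filter on low counts in the inputs alone, so their count supports nothing. miR-19a met the filter's minimum of reads in all only with its IP reads (5 and 3 input reads, 7 and 9 IP reads). miR-363, which shares the miR-92a seed, had 20.4 and 19.9 RPM in the inputs and 1 read in each IP, a ratio of 224 (58.7 to 1897, adjusted p = 5.38e-06). miR-106, with the miR-17 seed, had 7 and 8 reads in the inputs and none in the IPs, at least 45.6-fold lower against 3 counts over both IPs (adjusted p = 0.000181). miR-20b (4 and 5 input reads) and miR-18a (7 and 1) had no IP read, which makes them at least 27.4-fold and 24.3-fold lower on that floor. miR-18b (1 and 1 input reads, no IP read) and miR-32 (0 and 2, then 0 and 2) were too scarce to compare.

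miR-19a, the sister of miR-19b in the cluster, had 5 and 3 reads in the inputs and 7 and 9 in the IPs. It changed by -2.17 ± 0.66 per listed read (adjusted p = 0.0169) and by 2.49 within bovine microRNA reads (adjusted p = 0.000850), so its direction depends on the scale. All 16 of its IP reads were short sequences with a noted mismatch; they hold no member seed and were absent from the inputs, and the longer of them is shown because it does not resemble a miR-19 guide.
listed as miR-19a, IPs: tacaagaagaatgtggtgt
It had 4 and 8 reads in the IPs, and the same sequence without its last base had 3 and 1.

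By the distance between log2(RPM + 0.5) values, centred over the 4 libraries, the bovine microRNAs most like the sum of the members were miR-26b (mean absolute difference 0.07), miR-2887 (0.09), miR-342 (0.12), miR-652 (0.14) and miR-1260b (0.16), of 52 with at least 50 RPM in the inputs. miR-26b stood at 178 and 179 RPM in the inputs and at 2.51 and 2.35 RPM in the IPs. The least like of the 52 was miR-10161 (3.17), with 104 and 98.2 RPM in the inputs and 112 and 135 RPM in the IPs. This is a description over 4 libraries that fall into 2 groups, so it mostly ranks microRNAs by how much lower they were in the IPs.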

How the data were processed

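Per the labels, library preparation used the NEXTflex Small RNA-Seq kit in its version V3, and sequencing a NextSeq 500. The files deposited by the authors list, per library, each sequence with its read count and its unitas names, per the file headers. No trimming step, setting, database or build is named in the sources used here, and sequences without a name were not analysed here. Listed sequences were of 18 to 36 nt. In the name table the reads of a sequence that bears several names were split evenly over those names and rounded; tables of forms count them whole.

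Names (5392 after filterByExpr), arm names and sequences with at least 10 RPM in 2 libraries were compared between TDRKH IP and input with edgeR 4.0.16 in R 4.3.3 (its quasi-likelihood test), with listed reads as library size, Benjamini-Hochberg adjustment over each whole table and a threshold of 0.05. The scripts were tested on simulated counts. Forms were aligned without gaps to the printed sequence, with up to 2 substitutions and a 5′ shift of up to 4 bases, and the last 2 bases were not counted as inner. Shares were compared by exact permutation (Python 3.11.15, scipy 1.17.1). At 3 counts, the limit for a count of 0, libraries reach 2.78, 2.22, 0.269 and 0.271 RPM. No table of reference microRNAs was used; gene order is from RefSeq ARS-UCD2.0.

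All 8 members are named, with, for each, the sequences most abundant in each group and up to 3 further forms; all of a second list of related microRNAs; and the 5 microRNAs nearest in pattern. Members, lists and marker microRNAs (cumulus and granulosa cells, leukocytes, red blood cells, epithelia, liver, muscle and stroma) were chosen with earlier results of these data known. Alternatives were other scalings, DESeq2 1.42.0, other filters, exact names only, other handling of shared sequences, a replicate block, and each library left out.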

Additional observations from a re-analysis of the deposited data

How the results depend on the processing

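All tested members stayed lower per listed read under each alternative run. The number of names called fell from 4026 to 2140 with no filter, 1845 with at least 10 RPM in 2 libraries and 2107 to 2543 with 1 library left out. Calls higher and lower, 896 and 3130, became 1824 and 2525 with TMM factors, 1831 and 1281 with DESeq2's own size factors, and 3302 and 475 with bovine microRNA reads as library size; the median change of all names was then -2.40, -1.10, -0.28 and 2.28. Of the members, miR-106b was not called with bovine microRNA reads (-2.36) or no filter (-6.72), nor miR-92b with bovine microRNA reads (-0.52). Within bovine microRNA reads the 5 calls became 3 with DESeq2, 2 with exact names only and 3 to 5 with 1 library left out. With exact names only, miR-92b turned to 0.0559 (adjusted p = 0.912; range over its alternatives 0.0506 to 0.912), and miR-25 (-0.05), miR-93 (-0.91) and miR-20a (-1.05) were not called; the cause was not tested. Member arm names called went from 10 to 6 with bovine microRNA reads, where 9.16% of all arm names were lower. Member sequences called rose from 10 to 19 at 5 RPM, since more were tested, beside 21.8% of all sequences lower. Without either input no member sequence was tested. The annotated share of miR-92a was 18.7 points higher in the IPs, 15.3 to 22.1 with 1 library left out, and 5.31 points with exact names only, which leaves out the reads with noted mismatches.

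Per name, the difference between the input replicates was set against that between the IP replicates, taken in the same order. These differences, not the libraries themselves, correlated at 0.01 over 5392 names and 0.19 over 938 abundant ones. With only 2 pairs, same-numbered libraries share no more than a number. With the replicate block 3947 names were called, and 57.3% of all names were lower, as were the 7 members tested. So were 10 member arm names, beside 57.6% of all arm names, and 10 member sequences, beside 19.6% of all sequences. Within bovine microRNA reads 5 members were then lower, beside 8.70% of all names. Members with under 5 IP reads (miR-17, miR-20a, miR-106b and miR-19b) limit what their forms and order can show.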
